A study of Mus musculus with 2 samples.

Results

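The AP-1, MYC and ERK-responsive early genes are a set of 41 protein-coding genes chosen by symbol, and all 41 were found in the deposited table of 54532 genes, each under 1 identifier. The set holds the FOS and JUN subunits of the transcription factor AP-1, the related ATF3 and small MAF proteins, the EGR zinc fingers, the IER genes, the inhibitors of MAP kinase signalling (dual-specificity phosphatases, Sprouty and SPRED proteins), MYC with its partners, SRF, PHLDA1, the ETS factors Etv4 and Etv5, and KLF zinc fingers. The rule names genes by symbol and uses no measured value, but the members were chosen with earlier results of these data known. The library analysed was poly(A) RNA of 4T1 cells with the Cd28 gene knocked out; 4T1 is a mammary carcinoma line from BALB/c mice, and Cd28 encodes a costimulatory receptor best known from T cells. The series also has a wild-type 4T1 sample, but the table's remaining count column bears a name found in no label, so wild-type cells are not analysed here. Each group has 1 sample, and the values below are therefore levels in 1 knockout library with no replicate, not differences between genotypes. The sample label says only KO, and that the gene is Cd28 comes from the subject of the study. How the knockout was made, whether the cells were 1 clone, and how they were grown is not stated in the labels.

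Early genes are transcribed within minutes of growth factor, cytokine or stress signals, without the need for new protein synthesis. RAS, RAF, MEK and ERK carry the signal to ETS factors and SRF at the promoters of strict early genes, whose mRNAs are often short-lived. The products include both the AP-1 and EGR transcription factors and the phosphatases and Sprouty proteins that switch the kinases off again. MYC acts with MAX at E-box sequences to raise genes of growth and ribosome making, and MXD proteins compete for MAX; in breast carcinoma cells AP-1 proteins such as FRA-1, the product of Fosl1, are known for their link with invasive behaviour.

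The library held 15565990 counted reads, of which 96.2% lay on protein-coding genes. CPM stands for reads per 1000000 counted reads. Genes are compared by TPM, the count divided by the gene's length and scaled to a sum of 1000000. Brackets hold 95% intervals, exact Poisson for levels and exact binomial for ratios. They cover counting error in 1 library only. The reads carry no molecular identifiers, so repeated copies of a molecule are not recognised and the intervals may be too narrow. A gene with at least 10 reads was called detected, and a percentile is the percentage of the 11497 detected protein-coding genes with a lower TPM. Cd28 itself had 8 reads, or 0.514 CPM (0.222 to 1.01); the count covers the whole gene and, with no wild-type level beside it, does not check the label. The epithelial markers Krt18, Krt8, Cdh1 and Epcam were all detected, at 41.4 to 1057 CPM. All 5 leukocyte and all 3 endothelial markers listed had 0 reads, and of 4 fibroblast markers Col1a1 had 59 reads and Dcn, Lum and Col3a1 had 0.

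RNA of nearly all early genes was detected, over a wide range of levels. Of the 41 genes 39 were detected, where 52.2% of the 22046 protein-coding genes in the table were; Dusp2 and Mycn had 0 reads. At minimums of 1 and 3 reads the count was also 39 (background 62.6% and 57.1%), and at 100 reads it was 33 (background 43.9%). The median of the 41 was 38.1 TPM (percentile 64.6), beside 24.4 TPM for detected protein-coding genes, and 26 of the 41 lay above that median, as 50% of detected genes do by definition. Together the 41 genes took 54050 reads, 0.347% of the library. Myc, Ier3, Junb, Dusp4 and Jund had the highest TPM and made up 54% of the summed TPM of all 41. At the other end, Mxd1, Fosb, Egr2, Spry4, Egr3 and Fos were detected but stayed under 5 TPM, and the highest gene had 408 times the TPM of the lowest detected one. When the 41 genes were ordered by TPM, the intervals of 23 of the 40 neighbouring pairs overlapped. Overlap of separate intervals is not a test of a difference, so it does not settle the order within such a pair. The order of Myc, Ier3, Junb, Dusp4, Jund, Klf6 and Spry1 was resolved beyond counting error with the deposited lengths. The intervals of Spry1 and Ier2 overlapped.

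**Figure D1:**
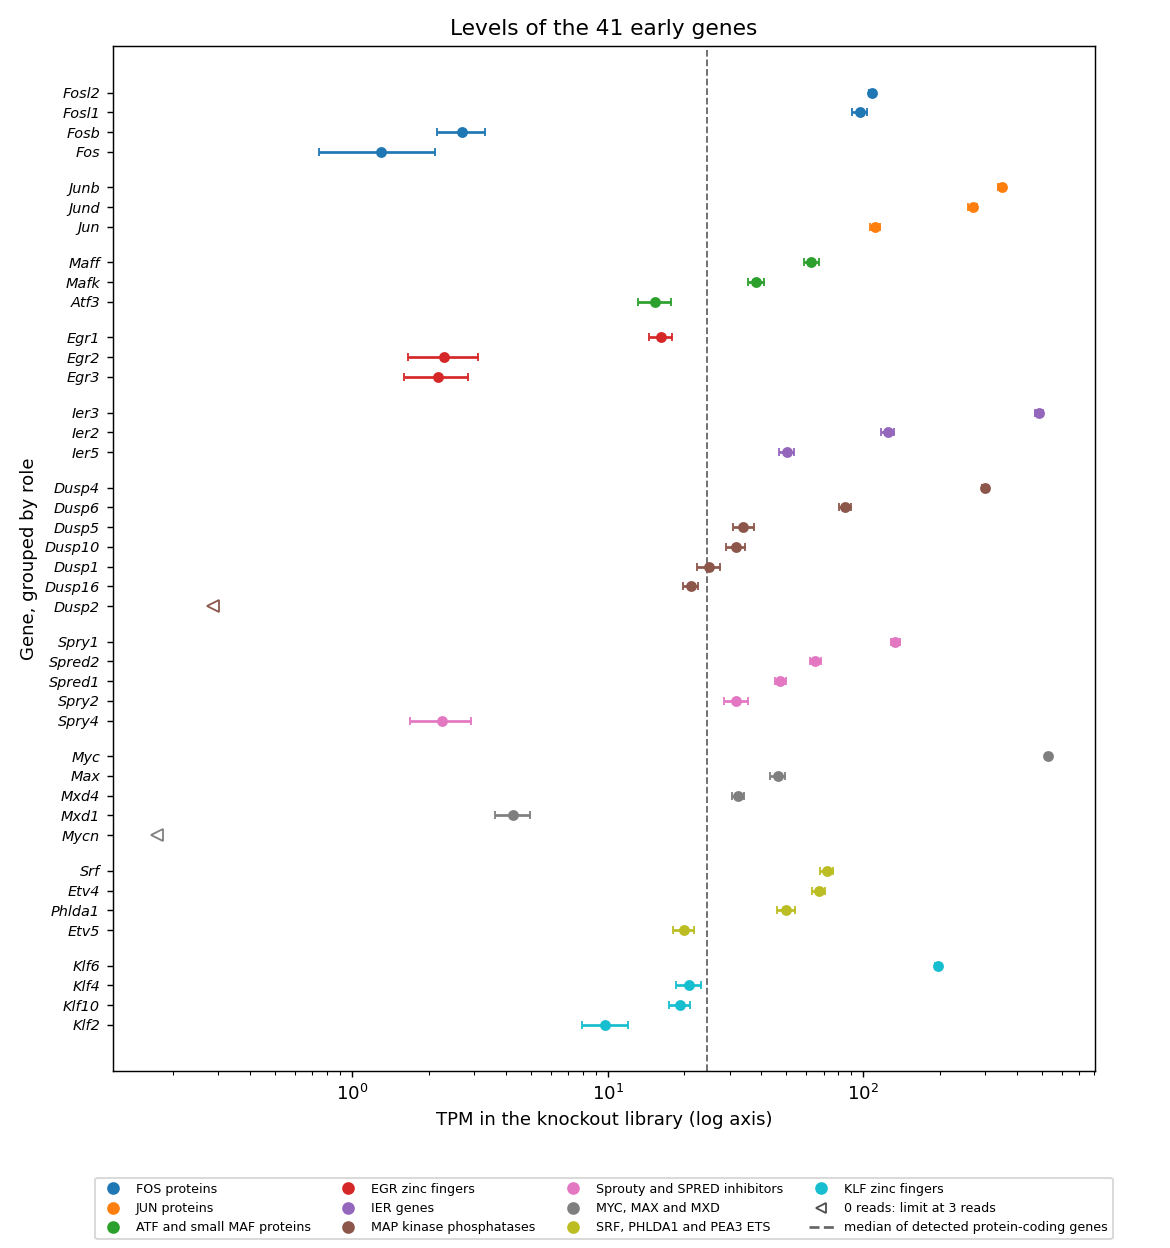
TPM on a log axis for the 41 early genes in the knockout library, grouped by role, with exact Poisson 95% intervals as bars, the median of detected protein-coding genes (24.4 TPM) as a dashed line, and open triangles at the 3-read limit for Dusp2 and Mycn. All JUN and IER genes lie above the median, all EGR genes lie below it, and the other groups have members on both sides.

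AP-1 binds DNA as dimers of a JUN protein with a FOS, ATF or second JUN protein. The FOS subunits divided into a high and a low pair. Fosl2 (chromosome 5, 32135801 to 32157842, plus strand, mm10), which encodes FRA-2, had 5518 reads, 354 CPM (345 to 364) and 109 TPM (106 to 112). Fosl1 (chromosome 19, 5447703 to 5455945, plus strand), which encodes FRA-1, had 868 reads and 96.9 TPM (90.6 to 104). Fosb had 88 reads and 2.69 TPM (2.16 to 3.31). Fos itself (chromosome 12, 85473890 to 85477273, plus strand), the classic early gene, had 16 reads, 1.03 CPM (0.588 to 1.67) and 1.3 TPM (0.741 to 2.11), at percentile 5.31. Fosl1 and Fosl2 thus held 98.1% of the summed TPM of the 4 FOS genes, and Fos and Fosb 1.9%. By TPM Fosl2 was 83.8 times Fos (51.6 to 147) and 40.4 times Fosb (32.8 to 50.5). Fosl1 was close to Fosl2 per length, at 0.892 of its TPM (0.829 to 0.958), but the ratio was 0.552 with coding transcript lengths. These are 1864 bases for Fosl1 and 6537 for Fosl2, in place of the deposited 1707 and 9680. The position of Fosl1 differs between the deposited table and GENCODE vM21, which gave the transcripts. Its transcript is longer than the length its reads were counted over, so the ratio of 0.552 is not like for like. In bulk RNA a low level cannot be told apart from a high level in a few cells, here for Fos and Fosb as for every gene below.

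All 3 JUN genes were far above the median, and none of their intervals overlapped. Junb (chromosome 8, 84974484 to 84978718, minus strand), a JUN protein that often restrains cell division, had 4207 reads and 349 TPM (338 to 359). Jund, the JUN protein of resting cells, had 2343 reads and 268 TPM (257 to 279), and Jun, the founding member, had 1865 reads and 111 TPM (106 to 117). With the deposited lengths the summed TPM of the JUN genes was 3.47 times that of the FOS genes. Of the JUN sum 47.9% lay on Junb, 36.8% on Jund and 15.3% on Jun. The ratio of 3.47 depends on the lengths and has no interval. Fosl2 had the longest deposited length of the 41, 9680 bases, and by CPM it exceeded Junb, at 354 against 270. The order of Junb and Jund is not secure: an antisense gene, Gm11175, with 0 reads, lies over 52.6% of the exon of Jund. Junb in turn overlaps Prdx2, a protein-coding gene with 4766 reads, over 7.52% of its exons. Where only the bases that no other gene covers were counted as length, Junb was 0.667 of Jund, against 1.3 (1.24 to 1.37) with the deposited lengths, and Jund was 4.7 times Jun in place of 2.4 (2.26 to 2.55). The labels do not state whether reads shared by overlapping genes were dropped.

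The ATF and small MAF genes of the set lay below all 3 JUN genes. The small MAF proteins have a leucine zipper but no activation domain of their own; Maff had 851 reads and 62.5 TPM (58.4 to 66.9) and Mafk had 780 reads and 38.1 TPM (35.5 to 40.9). Atf3, a stress-induced repressor, had 173 reads and 15.3 TPM (13.1 to 17.8), which is 0.402 of Mafk (0.339 to 0.474). The table's own transcription factor column lists 48 bZIP genes, 40 of them detected, and the 10 early genes among these held 34.5% of the summed bZIP TPM. Ahead of Junb in that column stood Atf4, the factor of the integrated stress response, at 411 TPM, and Atf5 at 376 TPM, a gene chosen after its value was seen. In the list of other AP-1 related bZIP genes, 8 of 12 were detected and 5 lay above the median, led by Atf4, Mafg (163 TPM) and Jdp2 (60.1 TPM). Batf, Batf2 and Nrl, factors of leukocytes and of photoreceptors, had 0 reads. For this and every later list, the background is 52.2% of protein-coding genes detected. Of detected genes 50% lie above the median by definition.

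The EGR genes were uniformly below the median. Egr1, a zinc finger factor induced through SRF and ETS factors, had 379 reads and 16.1 TPM (14.5 to 17.8), at percentile 37.5. Egr3 had 50 reads and 2.16 TPM (1.61 to 2.85), and Egr2, known for its part in myelination, had 41 reads and 2.3 TPM (1.65 to 3.12). Egr1 was 7.01 times Egr2 (5.07 to 9.92) and 7.45 times Egr3 (5.54 to 10.2), and the intervals of Egr2 and Egr3 overlapped. SRF, which works with ETS partners of the ELK family or with the MRTF coactivators, was itself well expressed, with 1092 reads and 72.0 TPM (67.8 to 76.4). Of the 6 listed partners found, 5 were detected and 4 lay above the median, led by Elk3 (93.4 TPM), Mkl1 (30.1 TPM) and Elk4 (28.6 TPM), and Myocd, the coactivator of muscle, had 0 reads.

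The IER genes, by contrast with the EGR genes, all lay above the median. Ier3, a regulator of survival under stress, had 2900 reads, 186 CPM (180 to 193) and 489 TPM (471 to 507); it stood second of the 41 by TPM and, with a short transcript of 1131 bases, sixth by reads. Ier2, a small nuclear protein, had 994 reads and 125 TPM (117 to 133). Ier5 had 863 reads and 50.2 TPM (46.9 to 53.7). Ier3 was 3.93 times Ier2 (3.65 to 4.22) and 9.73 times Ier5 (9.02 to 10.5).

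Feedback inhibitors of MAP kinases were expressed at very unequal levels. Dusp4 (chromosome 8, 34807297 to 34819894, plus strand), a nuclear phosphatase of ERK and JNK, had 4302 reads and 299 TPM (290 to 308), 60.4% of the summed TPM of the 7 phosphatases. Dusp6, the cytoplasmic phosphatase of ERK, had 1392 reads and 84.7 TPM (80.3 to 89.3), and Dusp5, its nuclear counterpart, 441 reads and 34 TPM (30.9 to 37.3). Dusp4 was 3.53 times Dusp6 (3.32 to 3.76) and 12.0 times Dusp1 (10.8 to 13.4) by the deposited lengths. With coding transcript lengths these ratios were 3.15 and 8.88. Dusp10 and Dusp16, which prefer JNK and p38, had 31.7 TPM (29 to 34.6) and 21.1 TPM (19.8 to 22.6). Dusp1, an early phosphatase of p38 and JNK, had 352 reads and 24.9 TPM (22.4 to 27.6), an interval that spans the median of detected genes. Dusp2, found mainly in blood cells, had 0 reads; the limit of 3 reads corresponds to 0.286 TPM.

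Sprouty and SPRED proteins block the path from receptor tyrosine kinases to RAF. Spry1 (chromosome 3, 37639947 to 37644598, plus strand) led with 2039 reads and 134 TPM (128 to 140). Spry2 had 349 reads and 31.9 TPM (28.6 to 35.4), and Spry4 had 54 reads and 2.24 TPM (1.69 to 2.93). The Sprouty genes were spread more widely than the SPRED genes: Spry1 was 59.6 times Spry4 (45.5 to 79.6), whereas Spred2, at 64.9 TPM (61.7 to 68.2), was 1.37 times Spred1 (1.28 to 1.47), at 47.5 TPM (45.2 to 49.8). Gm42922, with 0 reads, covers 24.4% of the exons of Spry1 from the opposite strand. Of the 8 other phosphatase, Sprouty and SPRED genes listed, 6 were detected and 5 lay above the median, with Dusp7 (97.9 TPM), Dusp3 (48.1 TPM) and Dusp14 (48 TPM) highest and Dusp26 and Spry3 at 0 reads.

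Etv4 and Etv5, PEA3-type ETS factors commonly used as readouts of ERK, differed as well. Etv4 had 1089 reads and 66.9 TPM (63 to 71) and Etv5 had 427 reads and 19.8 TPM (18 to 21.8), a ratio of 3.37 (3.01 to 3.78). Of the Etv5 transcript 81.9% of the 100-base stretches occur in no gene at another locus, and for the other 40 genes this held for 100%, so reads of Etv5 are the most open to being shared with a copy. With 50-base stretches the share was 71.7% for Etv5, 98.6% for Spred2, 99.1% for Mxd4, 99.7% for Klf4, just under 100% for Max, and 100% for the other members. Phlda1, another ERK readout, had 576 reads and 49.8 TPM (45.8 to 54), with 33% of its exons under the lincRNA gene Gm28592 on the opposite strand, which had 0 reads. With the deposited lengths, genes used as readouts or feedback inhibitors of ERK thus covered a wide range of levels. Dusp4 stood at percentile 97.2, Spry1 at 92.1, Dusp6 at 85.1, Etv4 at 80.5 and Spred2 at 79.8. Phlda1 stood at 72.7, Spred1 at 71.2, Dusp5 at 60.9 and Spry2 at 58.9. Only Etv5, at 43.6, and Spry4, at 8.98, lay below the median among these.

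**Figure D2:**
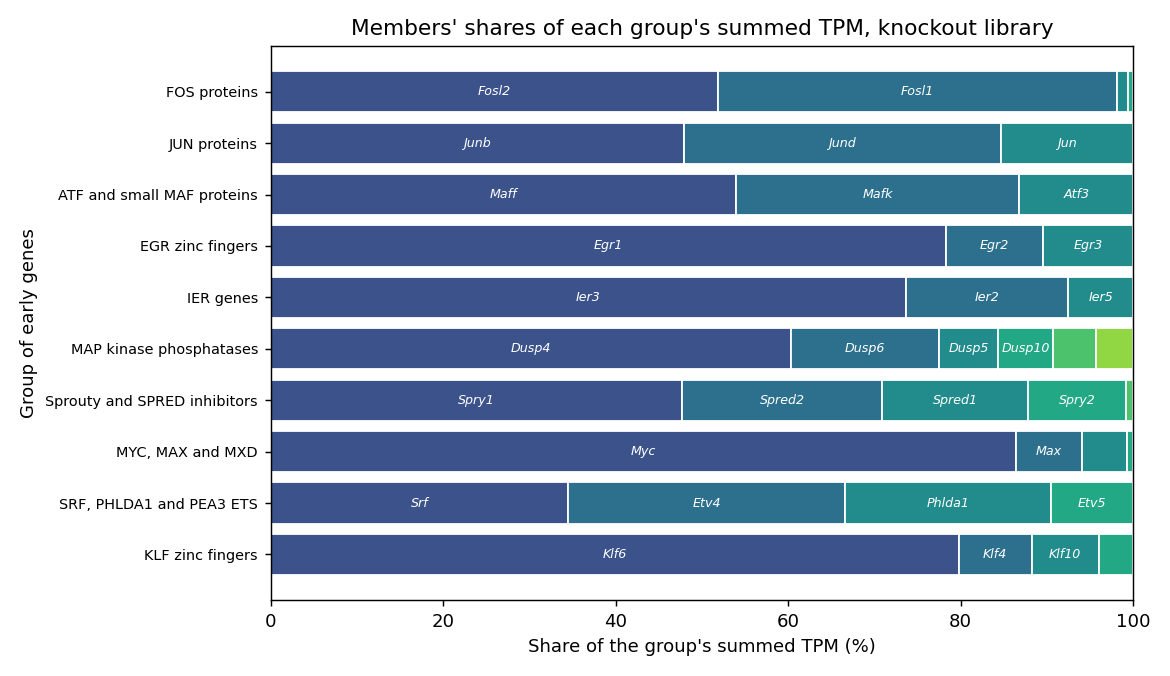
Share of each group's summed TPM (percent) held by its members in the knockout library, ordered from highest to lowest from the left; genes under 6% are drawn without a name. Myc held 86.4%, Klf6 79.8%, Egr1 78.3% and Ier3 73.7% of their groups, while Fosl2 and Fosl1 shared the FOS group at 51.8% and 46.3%.

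The MYC network was dominated by Myc. Myc (chromosome 15, 61985391 to 61990374, plus strand) had 7535 reads, 484 CPM (473 to 495) and 529 TPM (517 to 541), the most of the 41 on either scale with the deposited lengths and at percentile 98.5. With the length that no other gene covers, Jund came first with 539 TPM, and Myc had 505 TPM. Mycn, its paralog of neural and embryonic tissue, had 0 reads, a limit of 0.174 TPM. Max, the obligate partner, had 875 reads and 46.4 TPM (43.3 to 49.5). The repressive partners Mxd4 and Mxd1 had 32.3 TPM (30.7 to 34) and 4.26 TPM (3.62 to 4.98). Myc was 11.4 times Max (10.6 to 12.2) and 16.4 times Mxd4 (15.5 to 17.3) by the deposited lengths, but 7.15 times Max and 8.68 times Mxd4 by the lengths of the coding transcripts, because the deposited lengths of Max and Mxd4 exceed those transcripts more. Of 9 other MYC-MAX network genes 8 were detected and 4 lay above the median, led by the repressor Mnt (58.3 TPM), Mlx (39.4 TPM) and Mxi1 (35.5 TPM), and none had 0 reads. Each of the 18 listed MYC target genes was detected and lay above the median, and the list median was 134 TPM. The list was led by the nucleolar protein genes Npm1 (1709 TPM) and Ncl (407 TPM) and by Ldha (371 TPM). Such genes serve ribosome making and growth and are abundant in most dividing cells. The list was chosen with earlier results of these data known, and whether these levels depend on Myc was not tested.

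Among the KLF zinc fingers Klf6 held 79.8% of the summed TPM. Klf6 (chromosome 13, 5861482 to 5870394, plus strand), a widely expressed early gene, had 4516 reads and 196 TPM (190 to 202). Klf4, known from epithelial differentiation and reprogramming, and Klf10, induced by TGF-beta, had 20.8 TPM (18.6 to 23.1) and 19.2 TPM (17.4 to 21.1), and their ratio of 1.08 (0.935 to 1.25) was not resolved. Klf2, a factor of endothelium and resting T cells, had 95 reads and 9.81 TPM (7.93 to 12). Of the 13 other KLF and PEA3 genes 10 were detected and 5 lay above the median, with Klf5 (64.7 TPM), Klf9 (60.1 TPM) and Klf16 (46.3 TPM) highest and Klf15 and Klf17 at 0 reads.

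RNA of the upstream kinases was widely detected. Of all protein-coding genes 52.2% were detected, and 50% of detected genes lie above the median by definition. All 27 genes of the RAS-RAF-MEK-ERK list were detected and 20 lay above the median, with a list median of 38.3 TPM, close to that of the 41 early genes; Mapk3, which encodes ERK1, had 204 TPM, Nras 155 TPM and Rras 121 TPM. Of 12 JNK and p38 pathway kinases 10 were detected and 7 lay above the median, led by Mapkapk2 (149.5 TPM), Map2k3 (94.1 TPM) and Mapk14 (73.3 TPM), with Map2k6 at 0 reads. Other early genes varied widely too: of the 21 found, 16 were detected and 10 lay above the median, from the matricellular protein genes Cyr61 (621 TPM) and Ctgf (299.9 TPM) and the receptor gene Epha2 (194 TPM) down to the neuronal Arc, Egr4 and the EGF receptor ligand gene Ereg, each with 0 reads.

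**Figure D3:**
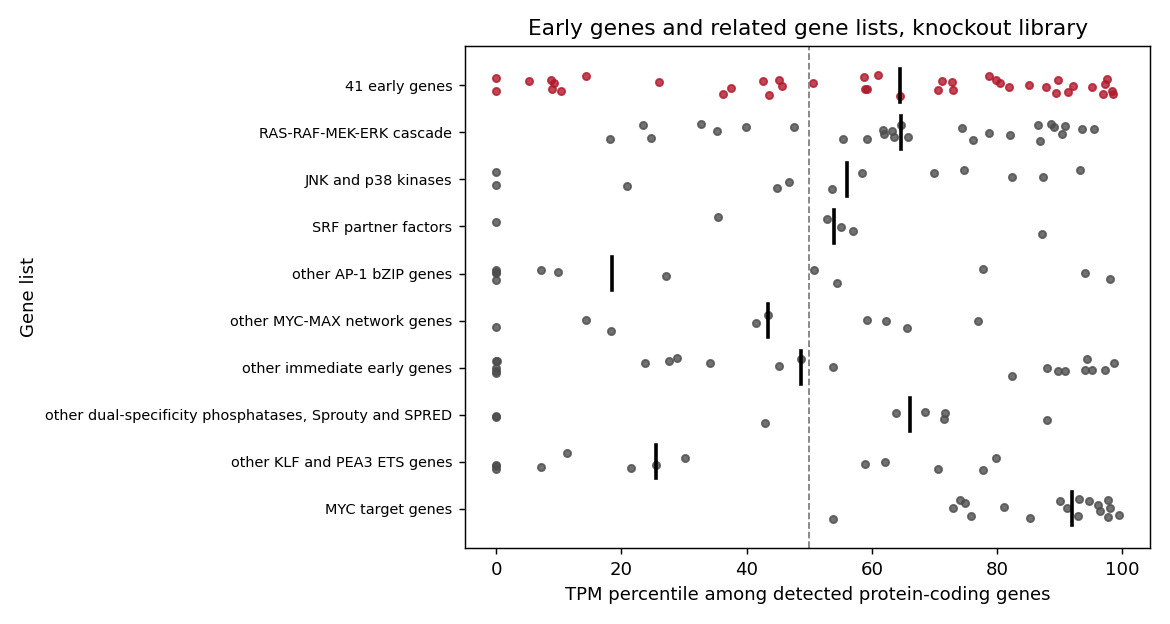
TPM percentile among the 11497 detected protein-coding genes for each of the 41 early genes and for the members of 9 related lists in the knockout library; points are genes, spread vertically for legibility, and bars are list medians. The 41 early genes run from percentile 0 to 98.5 with a median of 64.6, and the MYC target list has a median of 92. The lists were chosen with earlier results of these data known.

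As a set the 41 genes were compact. In the deposited table their median genomic span was 7356 bases, against 23740 for detected protein-coding genes, and 61% of the 41 spanned under 10000 bases, against 24.2%. Their median transcript had 4 exons against 9, and 75.6% had at most 4 exons against 19.6%; Junb, Jund, Ier2, Jun and Ier5 had a coding transcript of 1 exon. Exons were counted in the transcript whose coding sequence is longest in GENCODE vM21. There 38 of the 41 genes have the same position as in the deposited table, and Fosl1, Dusp1 and Spry4 do not. Compactness did not separate high from low members: the 26 genes above the median TPM had a median span of 8045 bases and the 15 others 6714.

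The 3' untranslated regions (UTRs) carried AU-rich sequence more often than those of other genes. ATTTA, the core of the elements that mark short-lived mRNAs, occurred at least once in 38 of 41 3' UTRs (92.7%), against 66% of 11266 detected protein-coding genes, and its median density was 1.88 per 1000 bases against 1.22. The median 3' UTR length of the early genes was 1186 bases. It was 937 over 11472 detected protein-coding genes, a wider background that also takes in genes with no 3' UTR. Ier3 had the highest density, 8.16 per 1000 bases, although it was among the most abundant mRNAs, and Ier2, Etv4 and Mxd4 had no ATTTA. Median density was 1.84 per 1000 bases in the 26 genes above the median TPM and 1.97 in the 15 others. The longer nonamer TTATTTATT occurred in 6 of the 41 (14.6%), against 7.31% of detected genes. Its 8 sites are shown, with the nonamer in capitals and DNA letters from the GENCODE vM21 transcripts, because they occur in genes of low and of high level, from Fos at 1.3 TPM to Fosl2 at 109 TPM; none of the 9 genes above Fosl2 by TPM holds one.
Fos, from base 655 of a 3' UTR of 815 bases: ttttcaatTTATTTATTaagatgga
Dusp1, from base 103 of a 3' UTR of 690 bases: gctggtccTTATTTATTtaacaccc
Dusp1, from base 392 of a 3' UTR of 690 bases: ttttacctTTATTTATTtttgtgta
Phlda1, from base 325 of a 3' UTR of 612 bases: gattatgaTTATTTATTagtttttt
Maff, from base 933 of a 3' UTR of 1221 bases: ccacactcTTATTTATTgcacgaat
Maff, from base 1132 of a 3' UTR of 1221 bases: cccagagtTTATTTATTttctgact
Srf, from base 44 of a 3' UTR of 754 bases: ggcaccacTTATTTATTgttgcctt
Fosl2, from base 3692 of a 3' UTR of 4653 bases: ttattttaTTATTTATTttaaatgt

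**Figure D4:**
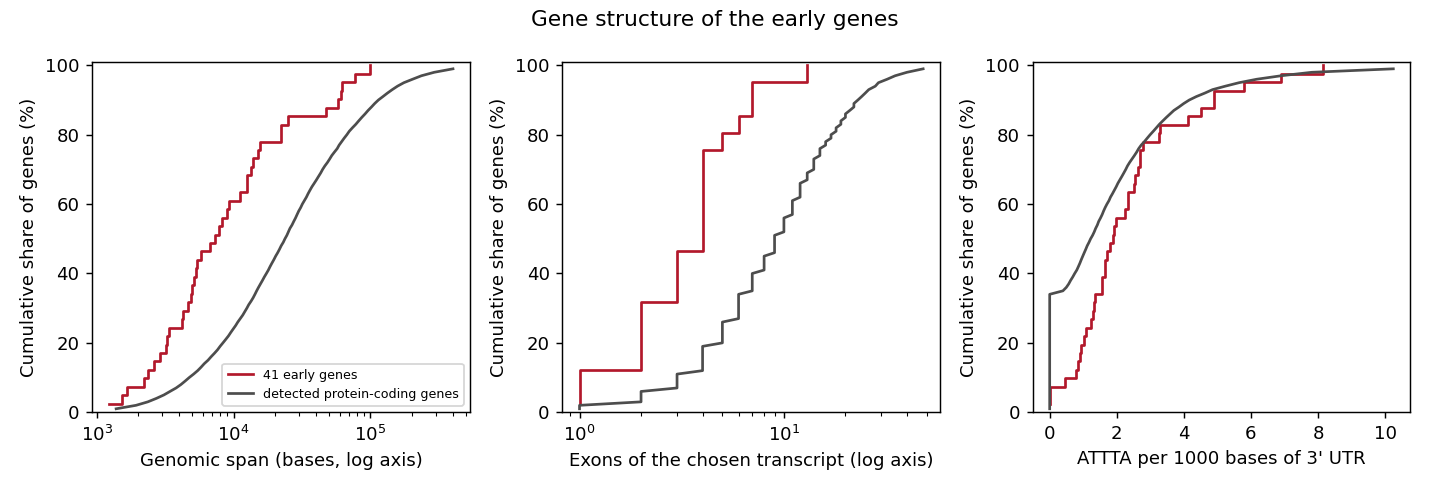
Cumulative share of genes (percent) by genomic span, by exons of the coding transcript (both on log axes) and by ATTTA per 1000 bases of 3' UTR, for the 41 early genes and for detected protein-coding genes. The curve of the early genes lies to the left for span (median 7356 against 23740 bases) and exon number (4 against 9), and to the right for ATTTA density over most of its range (1.88 against 1.22).

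Promoter sequence, from 250 bases before to 50 after a RefSeq start site in build GRCm38.p6, was found for 31 of the 41 genes, in 38 windows. No window was found for Myc, Fosl1, Egr1, Egr3, Ier2, Dusp4, Spry4, Phlda1, Etv4 and Klf10, so these genes were not searched. Sites further than 250 bases before the start site, in Fos or any other gene, were not searched either. Each motif was searched on both strands, and a gene counted if any of its windows held it. The only Jund window ends at base 70697788, before the gene starts in the deposited table, at base 70698949. The only windows of Dusp10 and Atf3 belong to start sites 21079 and 34706 bases inside the gene as that table places it. Jund, Dusp10 and Atf3 are still counted among the 31, and which start sites were in use was not tested. The serum response element core to which SRF binds, the CArG box (CC, 6 bases of A or T, GG), was in Dusp5, Egr2 and Srf, 3 of 31 (9.68%), against 1.5% of 9075 detected protein-coding genes with a window and 1.63% of all 32851 windows. The E-box CACGTG was in 9 of 31 (29%), among them Klf6, Max and Mxd4, against 11.9% of detected genes and 7.15% of windows. The cyclic AMP response element TGACGTCA was in Dusp1 and Maff (6.45% against 3.77% and, over all windows, 1.79%). The AP-1 sites TGAGTCA and TGACTCA were in 0 of 31, against 4.64% and 5.2%, and TATAAA or TTTATA was in Fos, Junb and Srf (9.68% against 8.26% and 13.6%). With 31 genes a difference of 1 gene moves these shares by several points, and a match is a run of letters, not a bound site. The 3 promoters with a CArG box belonged to genes at 72.0 TPM (Srf), 34 TPM (Dusp5) and 2.3 TPM (Egr2), so they covered high and low members alike. They are shown with all motif matches in capitals, together with Dusp1, which holds both TGACGTCA and CACGTG, and Fos, the lowest detected member, whose capitals mark TATAAA.
Srf promoter, chr17:46556113-46556412, minus strand: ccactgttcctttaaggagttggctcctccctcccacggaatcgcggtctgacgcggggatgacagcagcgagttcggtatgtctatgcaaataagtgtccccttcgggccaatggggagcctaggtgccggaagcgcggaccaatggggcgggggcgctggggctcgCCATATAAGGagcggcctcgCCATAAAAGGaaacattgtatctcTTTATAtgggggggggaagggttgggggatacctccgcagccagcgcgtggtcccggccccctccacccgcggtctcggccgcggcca
Dusp5 promoter, chr19:53528895-53529194, plus strand: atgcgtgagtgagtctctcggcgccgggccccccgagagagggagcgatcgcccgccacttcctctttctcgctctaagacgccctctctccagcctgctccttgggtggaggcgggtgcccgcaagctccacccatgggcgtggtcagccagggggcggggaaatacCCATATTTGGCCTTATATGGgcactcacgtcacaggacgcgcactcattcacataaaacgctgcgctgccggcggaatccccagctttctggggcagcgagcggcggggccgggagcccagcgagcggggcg
Egr2 promoter, chr10:67537619-67537918, plus strand: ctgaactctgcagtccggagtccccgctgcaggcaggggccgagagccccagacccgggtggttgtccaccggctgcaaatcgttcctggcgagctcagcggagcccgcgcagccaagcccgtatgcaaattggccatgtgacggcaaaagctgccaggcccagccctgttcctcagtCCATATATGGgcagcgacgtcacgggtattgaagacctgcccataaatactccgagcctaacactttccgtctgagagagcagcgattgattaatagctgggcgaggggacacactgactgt
Dusp1 promoter, chr17:26508423-26508722, minus strand: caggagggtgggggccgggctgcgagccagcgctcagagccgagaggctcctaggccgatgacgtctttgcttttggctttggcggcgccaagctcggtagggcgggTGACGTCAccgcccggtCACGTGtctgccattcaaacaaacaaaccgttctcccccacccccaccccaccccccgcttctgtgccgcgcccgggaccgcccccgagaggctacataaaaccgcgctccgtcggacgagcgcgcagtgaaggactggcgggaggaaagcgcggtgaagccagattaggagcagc
Fos promoter, chr12:85473640-85473939, plus strand: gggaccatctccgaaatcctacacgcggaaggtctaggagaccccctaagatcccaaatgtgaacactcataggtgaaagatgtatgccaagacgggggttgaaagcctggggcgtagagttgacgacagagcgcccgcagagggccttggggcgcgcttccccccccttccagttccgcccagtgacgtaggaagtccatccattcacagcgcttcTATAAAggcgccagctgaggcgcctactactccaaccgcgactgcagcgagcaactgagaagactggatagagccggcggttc
The CArG boxes of Srf begin 82 and 62 bases before the start site and those of Dusp5, which lie side by side, 82 and 72 bases before it. The Egr2 window shown is 1 of 5 in the reference and belongs to a start site 2394 bases inside the gene as the deposited table places it; its CArG box begins 72 bases before that site. In this sequence the capital run of Srf after its CArG boxes is TTTATA, the reverse complement of TATAAA.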

How the data were processed

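The series holds 2 samples of 4T1 cells, wild type and Cd28 knockout, 1 per group. The authors deposited raw read counts in whole numbers, with the position and length of every gene. The submitters' processing notes name HISAT2 2.0.5, featureCounts 1.5.0-p3, CASAVA and the build mm10. They do not name the annotation release, whether strand was used, or how reads shared by genes were treated. The count column headed KO carries the title of the knockout sample. The table has 1 other column of per-sample values, whose name matches no label, and it was not used.

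CPM, TPM, exact Poisson 95% intervals, percentiles and ratios (exact binomial intervals) were computed from the counts with Python 3.11.15, numpy 2.4.6, pandas 2.3.3 and scipy 1.17.1, and checked on simulated data; figures used matplotlib 3.10.9. With 1 library there is no test across samples, and p-values are not given. The members and the gene lists were chosen with earlier results of these data known. Every member may be named, with Cd28 and, from each related list, the 3 genes with the highest TPM and those with 0 reads. Motifs TTATTTATT and TATAAA were chosen after seeing the data. Mrtfa, Mrtfb, Ccn1 and Ccn2 appear in the table under older symbols only (Mkl1, Mkl2, Cyr61, Ctgf). Exons, 3' UTRs and stretches of 50 and 100 bases shared with genes at other loci came from GENCODE vM21; exon overlaps were limited to the spans and genes of the deposited table. Promoters are RefSeq's. Alternatives varied the read minimum, the gene length, the genes ranked against and the total.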

Additional observations from a re-analysis of the deposited data

How the results depend on the processing

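Since 1 library was used, leaving out a replicate was not possible and the spread between cultures is unknown. Counting error, the part that depth sets, was relatively widest at Fos, Egr2, Egr3 and Spry4. No paired analysis was possible because no groups were compared. The number of early genes called detected was 39 at 1 or 3 reads and 33 at 100, against 39 at 10. The number above the median TPM, 26, was 22 without length correction, 22 with coding transcript lengths, 30 when the ranking took in every protein-coding gene with a read, and 25 with the length that no other gene covers, an alternative added after seeing the data. The median percentile of 64.6 was 60.9 without length correction, 59.6 with coding transcript lengths, 70.5 when those genes were ranked too and 70.6 over the 39 detected members alone. Ranked among the 867 detected genes of the transcription factor column, likewise added afterwards, the 25 early genes listed there had a median percentile of 73.0. Without length correction the share of Fosl2 in the FOS group was 85% in place of 51.8%. Srf, which led its group with 34.5%, gave way to Etv4 with coding transcript lengths and to Phlda1 with uncovered lengths. Scaling to reads of protein-coding genes raised every CPM by 3.95% and left 35 of 41 within their intervals.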
